A study of Drosophila mettleri with 18 samples.

Results

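Larvae of the cactus fly Drosophila mettleri from 2 populations were compared on a single host, coastal prickly pear cactus. The comparison uses 6 of the series' 18 RNA-seq libraries. The Santa Catalina Island larvae came from the fly stocks C-M, C-7 and C-9 and the Sonoran larvae from the stocks T-22, T-27 and T-28, in this order replicates 1, 2 and 3 of each population. Each library was a pool of 10 larvae (last instar, aged 8 days) and reared on coastal prickly pear, and no agent or engineered allele is named in the labels. The other 12 libraries came from the same 6 strains on lab food (Drosophila 4-24 Instant food) and on saguaro cactus. The 6 libraries were chosen by their labels for population and food and not by any measured value. The labels give the stocks as strains, each with 1 pool on prickly pear, so the p-values measure a spread in which strain, pool and library cannot be told apart.

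D. mettleri breeds in soil soaked with the juice of rotting cacti, where its larvae meet plant compounds that poison many other flies. In the Sonoran Desert the hosts are columnar cacti such as saguaro, whereas prickly pear is the host on Santa Catalina Island. Cytochrome P450 enzymes, which oxidise foreign compounds, have been linked to the tolerance of host alkaloids in this species. Prickly pear is thus the home host of the Santa Catalina strains and not of the Sonoran strains. The deposited table names features only by their place in a de novo assembly, as a component number and a feature number. No gene name comes with them, so no function is given, the larval origin could not be checked against marker genes, and no sequence is shown.

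Totals on prickly pear were 12177096, 14560231 and 13197358 counts in C-M, C-7 and C-9, against 12798014, 11387692 and 10157101 in T-22, T-27 and T-28. Between 14369 and 14725 of the 15947 features had at least 1 count in each of the 6 libraries. The 100 most abundant features held 37.7% of the counts in C-9 and 41.0% to 46.5% in the other 5 libraries. C-9 also stood apart on the first principal component of log2 CPM (each count over the library's TMM-scaled total, as CPM), which held 42.6% of the variance. Its score was 62.9, with the other Santa Catalina strains at -12.2 (C-M) and -44.5 (C-7) and the Sonoran strains at 4.30, -24.9 and 14.5. The means of the populations on this component differed by 4.06 (exact permutation p = 1 over 6 samples, two-sided, where 0.1 is the smallest p that 3 against 3 can give). Without C-9, the first component of the remaining 5 libraries separated the populations, with a difference of means of -57.8 (exact permutation p = 0.1, the smallest that 2 against 3 can give). The second component, with 26.7% of the variance, placed all 3 Santa Catalina strains above all 3 Sonoran strains. Its scores were 25.5, 30.9 and 8.46 in Santa Catalina and -14.5, -49.5 and -0.92 in Sonoran (exact permutation p = 0.1, two-sided, again the smallest possible).

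**Figure D1:**
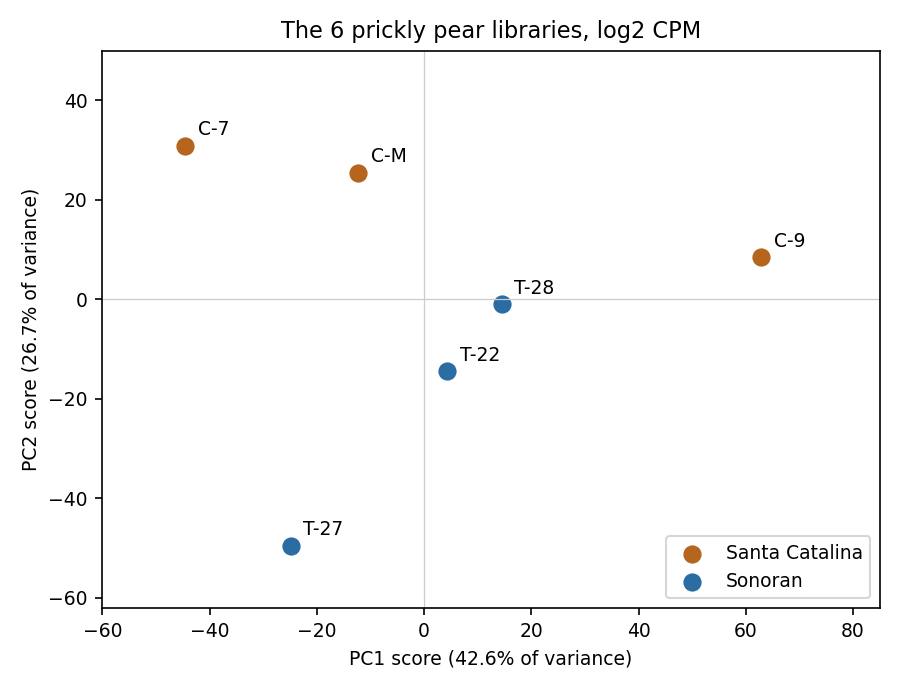
Scores of the 6 prickly pear libraries on the first (x) and second (y) principal components of log2 CPM, with the share of variance on each axis; each point is 1 strain. The first component sets C-9 at 62.9 and C-7 at -44.5, both from Santa Catalina, while the second sets the Santa Catalina strains (8.46 to 30.9) above the Sonoran strains (-49.5 to -0.92).

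The likeness of libraries within a population overlapped that between populations. Pairs of Santa Catalina libraries had correlations of log2 CPM between 0.909 and 0.974 across 12013 features, pairs of Sonoran libraries between 0.957 and 0.974, and pairs of 1 library from each population between 0.924 and 0.969. Features are not independent replicates, so these values are descriptions. The median SD between strains was 0.27 log2 CPM in Santa Catalina and 0.23 in Sonoran, beside a median absolute difference between the population means of 0.19. C-9 was 2-fold or more below the mean of its companions in 1064 features and above it in 428. T-27 was below in 1043 and above in 371, whereas C-7 was above in 906 and below in 341. For C-M, T-22 and T-28 the counts on either side ran from 155 to 540.

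The populations differed in 5 of the 12514 features tested on prickly pear, which is 0.0400% (edgeR quasi-likelihood test, adjusted p below 0.05). Of these, 3 were higher in Santa Catalina (0.0240%) and 2 were lower (0.0160%). In all, 395 of the 12514 features had an unadjusted p under 0.05 (edgeR). That share is below the 0.05 that uniform p-values would give. The count was 637 of 12013 with the 6 prickly pear libraries alone and 671 of 12656 without the C-9 prickly pear library. In the fit to all 18 libraries it was 2199 on lab food and 745 on saguaro. Each of these shares is above 0.05, so the low share is no measure of how few features differed. comp37185_c1 and comp37831_c13 rose in Santa Catalina relative to Sonoran, comp37831_c5 and comp37687_c1 fell, and comp37019_c0, a scarce feature outside the naming rule that completes the 5, rose. The spread was estimated from all 18 libraries with 12 residual degrees of freedom. Libraries of 1 strain on several foods add no further strains, so the p-values may be too small. With the 6 prickly pear libraries alone, 3 features were called, namely comp37185_c1, comp37831_c5 and comp37687_c1 (edgeR).

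**Figure D2:**
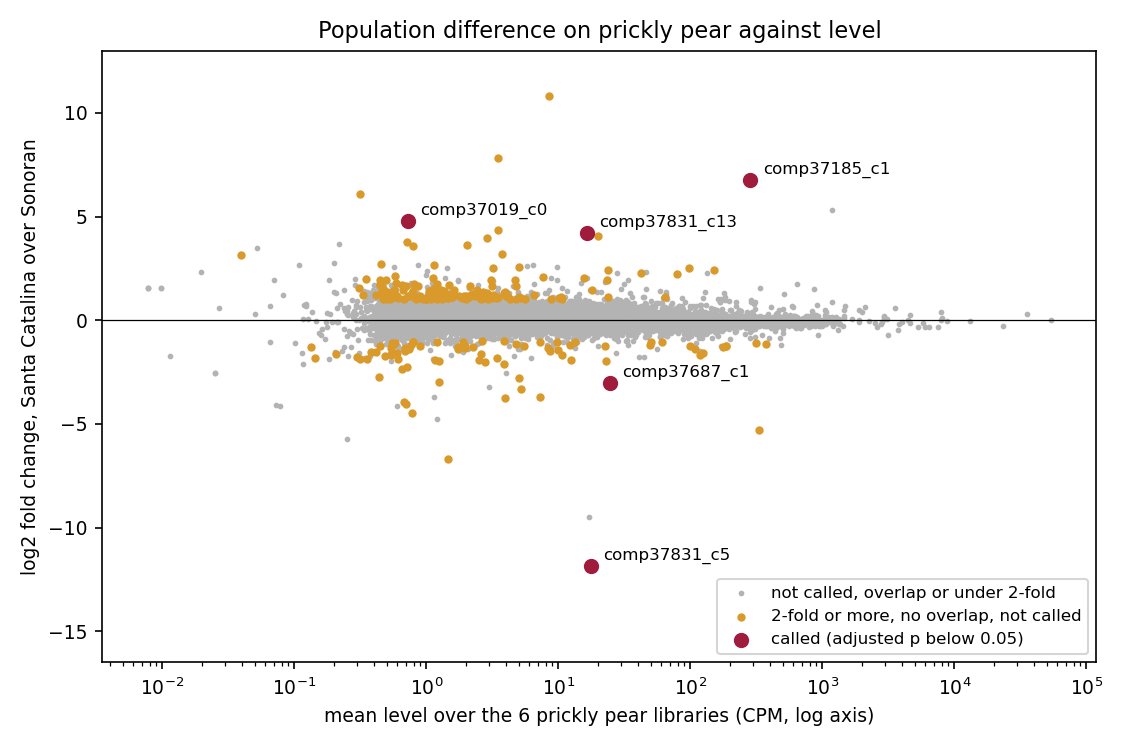
Log2 fold change of Santa Catalina over Sonoran larvae on prickly pear (y) against the mean level over the 6 libraries (x, CPM on a log axis), 1 point per tested feature; 8 features at 0 in all 6 libraries are not drawn. The 5 called features are marked and named, and the others that were 2-fold or more apart without overlap are shown in amber.

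comp37185_c1 had 8452, 10203 and 11715 counts in C-M, C-7 and C-9, against 100, 48 and 88 counts in T-22, T-27 and T-28. As levels these were 552, 597 and 543 CPM in Santa Catalina and 5.63, 3.61 and 6.02 CPM in Sonoran. The strains of a population were close together, and the lowest Santa Catalina strain lay far above the highest Sonoran strain. The means were 564 ± 28.7 CPM in Santa Catalina and 5.09 ± 1.29 CPM in Sonoran (SD, n = 3 each; log2 fold change 6.79, SE 0.42, adjusted p = 4.87e-07, edgeR). The call held in all 14 other settings tried for it.

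comp37831_c13 had 42.9, 35.1 and 15.8 CPM in C-M, C-7 and C-9, against 1.35, 2.41 and 1.30 CPM in T-22, T-27 and T-28. C-9 was the lowest of the Santa Catalina strains and still above every Sonoran strain. The means were 31.3 ± 14.0 CPM in Santa Catalina and 1.69 ± 0.624 CPM in Sonoran (SD, n = 3 each; log2 fold change 4.22, SE 0.49, adjusted p = 0.00110, edgeR). With the 6 prickly pear libraries alone the log2 fold change was 4.23 and the call was lost (adjusted p = 0.139, edgeR).

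comp37831_c5 had no counts in Santa Catalina, with 0 in C-M, C-7 and C-9, against 631, 589 and 380 counts in T-22, T-27 and T-28. The Sonoran levels were 35.5, 44.3 and 26.0 CPM, with a mean of 35.3 ± 9.15 CPM (SD, n = 3). Set against a floor of 3 counts over the 3 Santa Catalina libraries, or 0.0556 CPM, the feature was at least 630.4-fold lower in Santa Catalina (adjusted p = 0.000517, edgeR). It was the only feature of the table with 0 counts in every library of a population on prickly pear and at least 10 in every library of the other.

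comp37687_c1 had 5.55, 5.91 and 4.68 CPM in C-M, C-7 and C-9, against 43.9, 42.7 and 44.0 CPM in T-22, T-27 and T-28. Its spread between strains was the smallest of the 5 called features relative to the difference. The means were 5.38 ± 0.631 CPM in Santa Catalina and 43.5 ± 0.723 CPM in Sonoran (SD, n = 3 each; log2 fold change -3.02, SE 0.18, adjusted p = 4.87e-07, edgeR). The 95% interval of the log2 fold change ran from -3.40 to -2.63, and the call held in all 14 other settings.

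comp37019_c0 was scarce, with 17, 24 and 37 counts in C-M, C-7 and C-9, against 2, 0 and 0 counts in T-22, T-27 and T-28. Its levels were 1.11, 1.40 and 1.71 CPM in Santa Catalina and 0.113, 0 and 0 CPM in Sonoran (adjusted p = 0.0358, edgeR). Pooled over libraries, 78 counts in Santa Catalina against 2 in Sonoran gave a ratio of 33.0, with an exact 95% interval of 8.83 to 277 that covers counting error only. The call was lost in 9 of 14 other settings, among them the removal of the C-M, C-7, C-9, T-27 or T-28 library, and the adjusted p ranged from 0.00341 to 0.470 over the settings (edgeR, DESeq2 and limma).

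**Figure D3:**
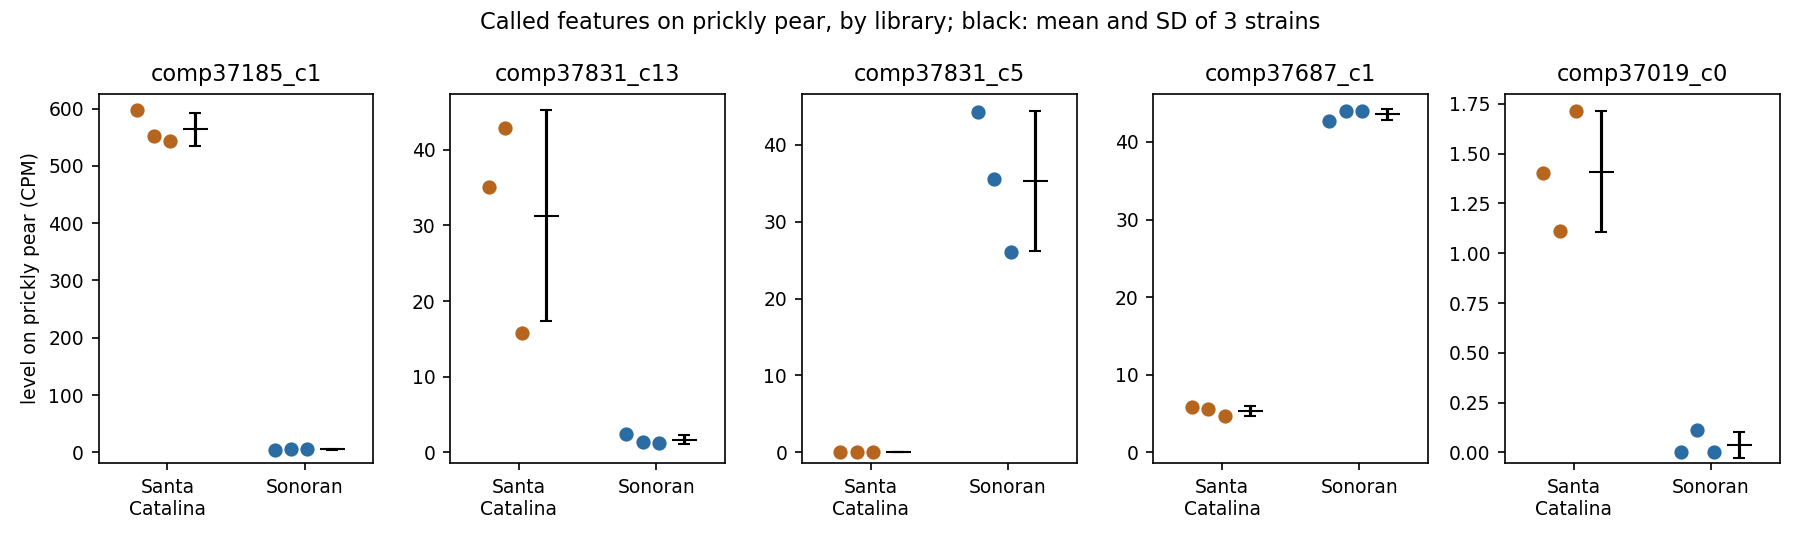
Level on prickly pear (y, CPM, each panel on its own scale) of the 5 called features in the 3 Santa Catalina and the 3 Sonoran libraries; points are strains, and the black mark and bar give the mean and SD. No feature overlaps between the populations: comp37185_c1 lies at 543 to 597 against 3.61 to 6.02 CPM, and comp37831_c5 at 0 against 26.0 to 44.3 CPM.

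Of the 5 called features, 4 belonged to components with several tested features, which held 5161 of the 12514 features tested. Of the features 2-fold or more apart without overlap, 64 were in such components (1.24% of their features) and 164 were the only tested feature of a component (2.23%). Features grouped in 1 component can share sequence, and reads may be divided among them, so their separate levels are uncertain. comp37831_c13 and comp37831_c5 are such partners: the first was high where the second had no counts. comp37185_c1 had a partner of the same kind in comp37185_c3, chosen after its values were seen. That partner had 3.66, 42.6 and 2.32 CPM in C-M, C-7 and C-9, against 592, 775 and 556 CPM in T-22, T-27 and T-28. C-7 held over 10 times the level of the other Santa Catalina strains but remained below every Sonoran strain. The log2 fold change of comp37185_c3 was -5.31 (SE 1.43) and was not called (adjusted p = 0.557, edgeR).

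The sums of the partner features overlapped between the populations. comp37185_c1 and comp37185_c3 together had 556, 639 and 545 CPM in C-M, C-7 and C-9, against 597, 778 and 562 CPM in T-22, T-27 and T-28. The mean sums were 580 ± 51.4 CPM in Santa Catalina and 646 ± 116 CPM in Sonoran (SD, n = 3 each), a ratio of 0.898 (exact permutation p = 0.5, two-sided). Without T-27 the ratio was 1.00. The share of that sum taken by comp37185_c1 was 99.3%, 93.3% and 99.6% in C-M, C-7 and C-9, against 0.943%, 0.464% and 1.07% in T-22, T-27 and T-28. The 95% Clopper-Pearson interval of the C-7 share ran from 92.8% to 93.8%, below the intervals of C-M (99.1% to 99.5%) and C-9 (99.4% to 99.7%). These intervals cover counting error only and not the spread between pools of a strain.

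comp37831_c13 and comp37831_c5 together had 42.9, 35.1 and 15.8 CPM in C-M, C-7 and C-9, against 36.9, 46.7 and 27.3 CPM in T-22, T-27 and T-28. The sums overlapped between the populations, with a ratio of means of 0.846 (exact permutation p = 0.6, two-sided). comp37831_c13 took 100% of the sum in every Santa Catalina library and 3.66%, 5.15% and 4.76% in T-22, T-27 and T-28. The shares of both pairs did not overlap between the populations, which follows from how the pairs were chosen and was not tested.

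**Figure D4:**
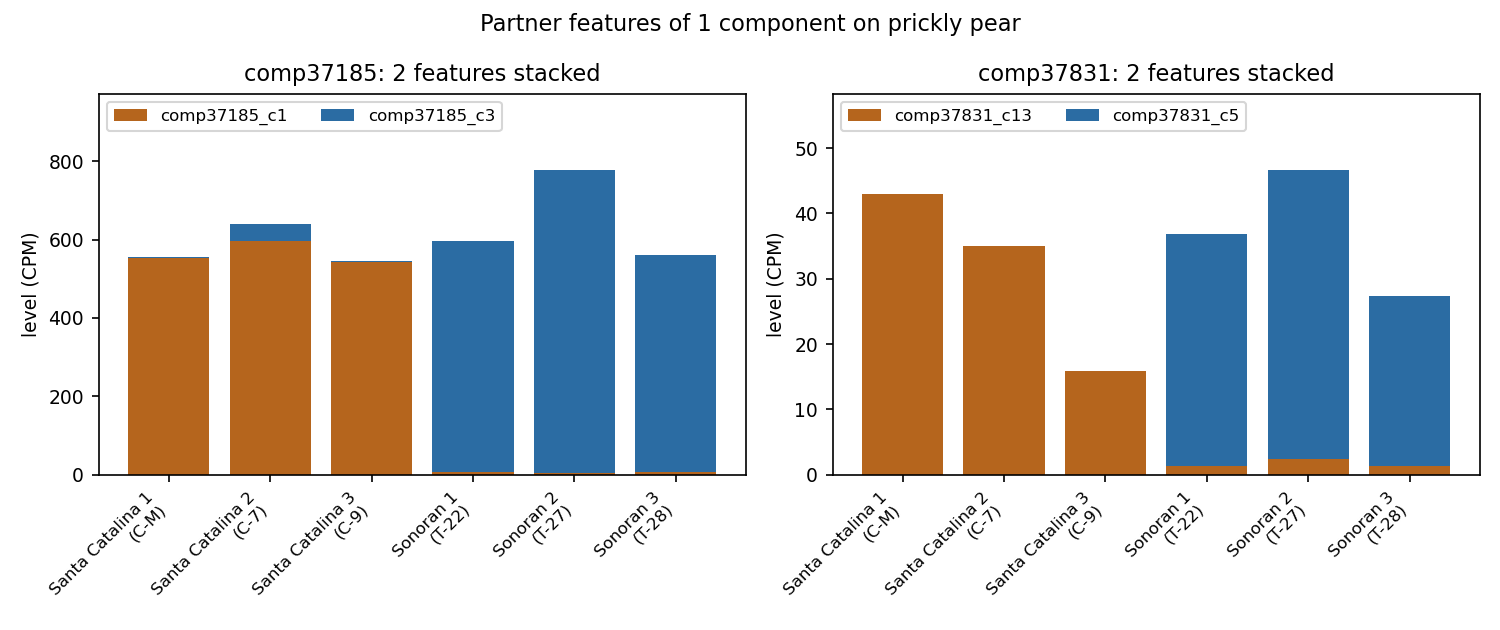
Stacked levels (y, CPM from 0) of the partner features of comp37185 (left) and comp37831 (right) in each prickly pear library, Santa Catalina strains left of Sonoran strains. The bars reach 545 to 639 against 562 to 778 CPM for comp37185 and 15.8 to 42.9 against 27.3 to 46.7 CPM for comp37831, made up mostly of comp37185_c1 and comp37831_c13 in Santa Catalina and mostly of comp37185_c3 and comp37831_c5 in Sonoran.

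In comp37831 the other 6 features had log2 fold changes of 0.01 to 0.12, in comp37185 the other 2 had 0.04 and -0.50, and in comp37687 the other 5 had -0.45 to 0.09, none of them called (adjusted p = 1.00 for each, edgeR). Among the 1884 components with several tested features, comp37185 and comp37831 were the 2 that held both a feature 4-fold or more higher and a feature 4-fold or more lower without overlap of the libraries. When the counts of all features of a component were summed, 0 of 9270 components were called (edgeR). An unadjusted p under 0.05 was found for 276 of them, a share also below 0.05. The log2 fold change of the summed comp37185 was -0.08 (SE 0.28) and that of comp37831 was 0.04 (SE 0.32). For comp37687 it was -0.51 (SE 0.19; unadjusted p = 0.0160, adjusted p = 1, edgeR), and for comp37019, which has 1 feature, 4.76 (SE 0.77, adjusted p = 0.0952, edgeR). The sums of comp37185, comp37831 and comp37687 hold further features. On prickly pear, comp37831_c0 alone had 95.7 to 632 CPM and comp37185_c0 had 274 to 1034 CPM. comp37687_c3 had 35.9 to 57.6 CPM, beside comp37687_c1 at 4.68 to 44.0 CPM. A component sum thus says little about a pair or a single feature within it. The summed fit was chosen after the data were seen.

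The 5 called features were among 228 (1.82% of those tested) that were 2-fold or more apart with no overlap between the populations, 148 of them higher in Santa Catalina (1.18%) and 80 lower (0.639%). Of the 148, 124 averaged under 5 CPM, and of the 80, 50 did. That class held 4733 of the 12514 tested features, and 3.68% of it was in the set. A scarce feature could pass the filter through the libraries of a single group. This can favour differences without overlap in that class, so its share is no result about scarce features. Of the 190 features averaging 500 CPM or more, 0 were in this set, and their median absolute log2 fold change was 0.14, beside 0.20 over all tested features and 0.33 under 5 CPM. Leaving out a library raised the count, in part by construction, since fewer libraries can overlap. It was 306 without C-M, 399 without C-7, 618 without C-9, 440 without T-22, 272 without T-27 and 696 without T-28. The filter, scaling and fold changes were also computed anew each time. The balance of directions rested on single libraries: without C-7, 190 features were higher in Santa Catalina and 209 lower, and without T-28, 549 were higher and 147 lower.

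For many features the interval of the difference was narrow enough to bound it. The 95% interval of the log2 fold change lay within 2-fold in both directions for 6688 of the 12506 features that had one, which is 53.5%. The share was 70.9% at 5 to under 50 CPM, 75.0% at 50 to under 500 CPM and 62.1% at 500 CPM or more, but 23.4% under 5 CPM. For 1924 features the interval reached beyond 2-fold in both directions, so a difference of that size was not detectable either way.

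Some large mean differences were carried by 1 strain. Of 15 features at least 8-fold apart and averaging 3 CPM or more, a set chosen after the values were seen, 4 were called and 11 were not. In 9 of the 11 the populations did not overlap, beside 13.7% of all tested features. The choice by large difference favours this. In 3 of the 11, the highest strain of the higher population was over 10 times the next. comp14071_c1 had 48.0, 37.6 and 6813 CPM in C-M, C-7 and C-9, against 33.1, 129 and 12.9 CPM in T-22, T-27 and T-28. It took 1.11% of the C-9 library, and the populations overlapped even with C-9 included. The same strain held 12876 CPM of it on lab food (1.00% of that library) and 9963 CPM on saguaro (0.754%). Its share was thus highest on prickly pear although its CPM was lowest there. The TMM factors of C-9 were 1.64 on prickly pear, 0.779 on lab food and 0.757 on saguaro. comp73320_c0 had 0.131, 0 and 0 CPM in C-M, C-7 and C-9, against 0.113, 102 and 0.137 CPM in T-22, T-27 and T-28, so that T-27 alone carried the Sonoran mean. T-27 held 29.0 CPM of it on lab food and 1.12 CPM on saguaro. Neither feature was called on prickly pear (adjusted p = 1.00 for comp14071_c1 and 0.865 for comp73320_c0, edgeR).

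The lab food and saguaro libraries of the same strains entered the prickly pear test through the filter, the scaling and the shared estimate of the spread, but not through the means compared. Counts of these foods were summed per strain and tested as 3 strains against 3, which called 9 of 12207 features (0.0737%; edgeR, adjusted p below 0.05), 4 of them higher in Santa Catalina (0.0328%) and 5 lower (0.0410%). Of the 5 prickly pear calls, 4 were among these 9, in the same direction. comp37185_c1 averaged 695 ± 153 CPM in Santa Catalina and 6.56 ± 1.78 CPM in Sonoran on the summed other foods (SD, n = 3 each; log2 fold change 6.72, SE 0.34, adjusted p = 0.00186, edgeR). comp37687_c1 averaged 5.38 ± 0.602 CPM in Santa Catalina and 45.1 ± 4.84 CPM in Sonoran (SD, n = 3 each; log2 fold change -3.07, SE 0.16, adjusted p = 0.00186, edgeR). These are further libraries of the same strains, not further strains.

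comp37831_c13 averaged 45.8 ± 12.8 CPM in Santa Catalina and 0.918 ± 0.233 CPM in Sonoran on the summed other foods (SD, n = 3 each; adjusted p = 0.00207, edgeR). comp37831_c5 averaged 0.138 ± 0.177 CPM in Santa Catalina and 36.3 ± 5.38 CPM in Sonoran (SD, n = 3 each; adjusted p = 0.0159, edgeR). Its Santa Catalina counts came from saguaro, with 9 in C-M and 2 in C-9, and were 0 in all 3 Santa Catalina libraries on lab food. Its call on the other foods was lost without T-22, T-27 or T-28 (adjusted p = 0.108, 0.0896 and 0.0848, edgeR). The C-7 strain again held the most comp37185_c3 in Santa Catalina, at 31.4 CPM on lab food and 163 CPM on saguaro, and comp37185_c1 took 95.3% and 77.5% of the pair there.

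comp37019_c0 was not called on the other foods. It averaged 0.597 ± 0.196 CPM in Santa Catalina and 0.282 ± 0.125 CPM in Sonoran (SD, n = 3 each; log2 fold change 1.07, SE 0.47, adjusted p = 0.958, edgeR). On lab food the levels were 1.36, 1.16 and 0.680 CPM in Santa Catalina against 0.602, 0.181 and 0.180 CPM in Sonoran. On saguaro they were 0.107, 0.311 and 0.171 CPM in Santa Catalina against 0.284, 0.641 and 0.174 CPM in Sonoran, so the populations overlapped there.

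**Figure D5:**
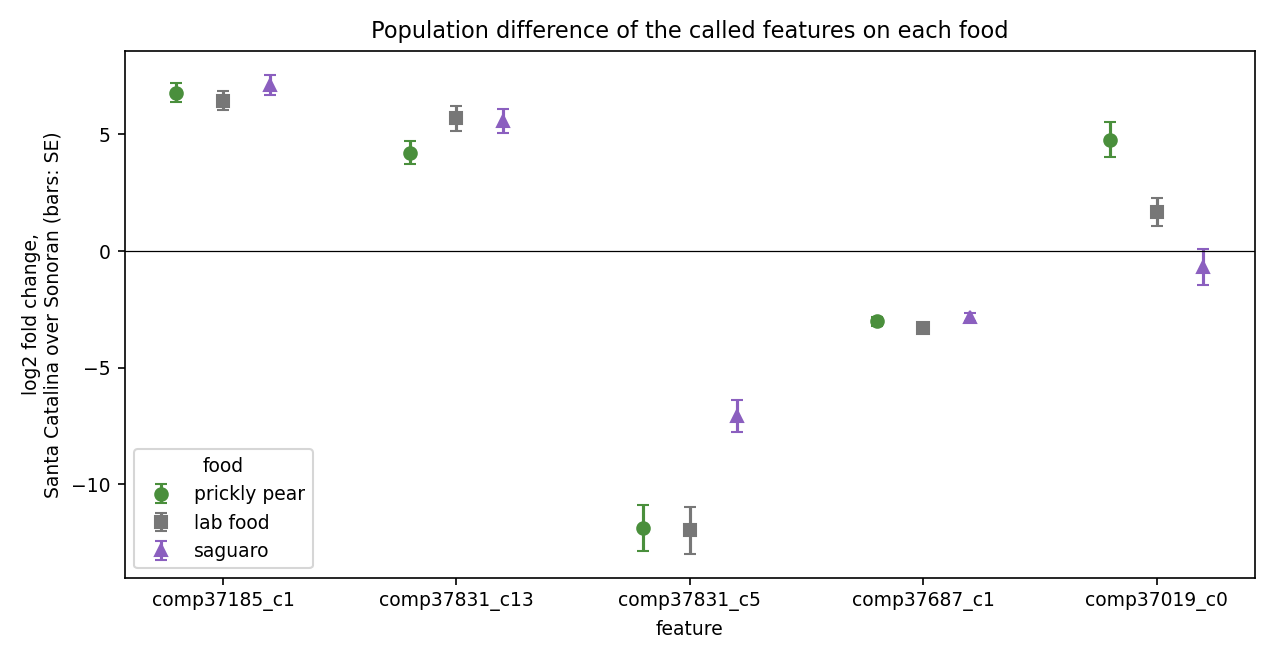
Log2 fold change of Santa Catalina over Sonoran larvae (y; bars, SE) for the 5 features called on prickly pear, on prickly pear, lab food and saguaro (x, by feature), from the fit to all 18 libraries. The first 4 features keep their side of 0 on every food, whereas comp37019_c0 lies at 4.77, 1.67 and -0.69; the values of comp37831_c5 rest on Santa Catalina counts of 0 or nearly 0 and are no bound.

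Of the 148 features 2-fold or more higher in Santa Catalina on prickly pear, 113 could be tested on the other foods and 106 of those (93.8%) were also higher there, beside 52.8% of all features. Of the 80 that were lower, 74 could be tested and 67 (90.5%) were also lower, beside 47.2% of all features. The populations did not overlap in the same direction on the other foods in 30 of the 113 (26.5%, beside 4.62% of all features) and in 31 of the 74 (41.9%, beside 4.15%), where 8.77% of all features did not overlap in either direction. Across 12075 features tested in both, 64.6% had the same direction on prickly pear and on the other foods. The 2-fold sets were chosen for large differences in these same strains, which favours a kept direction. Over the 12075 features the log2 fold changes had Pearson r = 0.586 and Spearman rho = 0.460, and r was 0.560 without the 5 called features. The points share their strains and are not independent.

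Whether a population difference was particular to prickly pear was tested as the difference on prickly pear minus the mean of the differences on lab food and saguaro. No feature was called (0 of 12514, 0%, edgeR), and DESeq2 made 0 calls. An unadjusted p under 0.05 was found for 136 of the 12514 features (edgeR), again a smaller share than 0.05. Without C-9 on all foods it was found for 647 of 12596, a share above 0.05. For comp37185_c1 this difference between foods was 0.00 on the log2 scale, with a 95% interval of -1.21 to 1.20, and for comp37687_c1 it was 0.05, with an interval of -0.40 to 0.49. For comp37831_c13 it was -1.42 (SE 0.57), the population difference being smaller on prickly pear, and did not pass the correction (unadjusted p = 0.0257, adjusted p = 1.00, edgeR). For comp37831_c5, with no Santa Catalina counts on prickly pear or lab food, the fit gave no usable value (SE 7517). The test therefore says nothing about that feature. The smallest p among features with a larger Santa Catalina excess on prickly pear was that of comp37019_c0, at 4.28 (SE 0.93, unadjusted p = 0.000345, adjusted p = 1.00, edgeR).

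In the other direction the smallest p was that of comp39048_c1, which had 13.9, 12.4 and 13.9 CPM in C-M, C-7 and C-9 on prickly pear, against 33.8, 39.6 and 21.1 CPM in T-22, T-27 and T-28. The populations did not overlap there, whereas on lab food it had 10.6, 14.8 and 17.5 CPM in Santa Catalina and 14.2, 14.5 and 15.7 CPM in Sonoran, which overlapped. On saguaro it had 24.7, 15.5 and 25.2 CPM in Santa Catalina and 28.5, 23.4 and 21.1 CPM in Sonoran, which also overlapped. Its difference between foods was -1.13 (SE 0.29, unadjusted p = 0.00164, adjusted p = 1.00, edgeR). Its population difference on prickly pear was -1.24 (SE 0.24, adjusted p = 0.142, edgeR). The other feature of its component, comp39048_c0, had 11.7 to 13.6 CPM in Santa Catalina on prickly pear. Its Sonoran levels there were 19.2 to 26.1 CPM (adjusted p = 0.946, edgeR).

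In the same fit the populations differed in 16 features on lab food (0.128%), 9 of them higher in Santa Catalina (0.0719%) and 7 lower (0.0559%). On saguaro they differed in 17 (0.136%), 8 higher in Santa Catalina (0.0639%) and 9 lower (0.0719%). Of the 5 prickly pear calls, 4 were in each of those lists, which is 25.0% of the lab food list, 23.5% of the saguaro list and 80% of the prickly pear list. On prickly pear all 16 of the lab food features and all 17 of the saguaro features had the same direction, 12 and 17 of them without overlap between the populations, beside 13.7% of all features with no overlap in either direction. The smaller count on prickly pear is no test that the populations were more alike there.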

How the data were processed

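Each library is a pool of 10 larvae, and every library was sequenced on both lanes, per the labels' protocols. The table that the authors deposited holds unnormalized counts for 15947 assembled features, 3 of them at 0 throughout. Trinity made the assembly, and sequences of a gene were merged, as the series' design text states. The submitters' processing notes name edgeR. The counting program, its version and any filters: not given in the sources used here.

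Tests were run with edgeR 4.0.16 under R 4.3.3. filterByExpr on the 6 groups left 12514 features with 99.9% of the counts. The fit used TMM scaling, 6 group means over 18 libraries, quasi-likelihood F tests and Benjamini-Hochberg adjustment over all features tested. SE is the log2 fold change divided by the square root of F, and intervals use the test's degrees of freedom. Lab food and saguaro counts were summed per strain. Principal components used log2 CPM with a prior count of 2. Alternatives were RLE factors, library totals, no filter, DESeq2 1.42.0, limma 3.58.1 with strain as a random block, the 6 libraries alone and leaving out libraries. The fits were tested on simulated data. Libraries within a group were not repeats (smallest chi-square per degree of freedom 26.6). Floors and intervals cover counting error only, and PCR reads that carry no molecular identifiers are not independent.

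The named features are, in each direction, the called one with the largest fold and the one with the highest level, given 2-fold, no overlap and at least 5 CPM, and for the difference between foods the smallest p. The comparison and its lists were chosen with earlier results of these data known.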

Additional observations from a re-analysis of the deposited data

How the results depend on the processing

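The 5 calls on prickly pear became 33 with DESeq2 (22 higher, 11 lower, all 5 included), 3 with the 6 prickly pear libraries alone and 0 with counts summed per component. Leaving out a prickly pear library gave 4 to 11 calls, 11 of them without C-9, the library that stood apart on the first principal component. RLE factors, library totals, no filter, strain as a random replicate block (limma, 5 calls) and replicate number as a fixed replicate block (4 calls) stayed within 1.5 times. By the labels, replicate numbers do not pair the populations, since each names a different strain. Same-numbered deviations had correlations of -0.031, 0.242 and 0.218, and different-numbered ones ran from -0.293 to 0.167. Whether libraries of the same number share an effect was not tested. For the other foods summed per strain, 9 calls became 80 with DESeq2 and 3 to 16 without a strain: 5 without C-M, 16 without C-9, 3 without T-22, 5 without T-27 and 3 without T-28. The difference between foods stayed at 0 calls in all 11 settings, strain as a fixed replicate block included. On the first principal component the difference between populations ran from -57.8 to 43.5 when a library was left out, with -57.8 without C-9 and -14.0 without T-27 once scores were oriented by the loadings of all 6 libraries. Without C-9 this component separated the populations (exact permutation p = 0.1, the smallest that 2 against 3 can give), where it did not with all 6 (p = 1). The cause of these changes was not tested. The 2-fold set was 458 with no filter, which adds scarce features. Depth limits statements on features under 5 CPM.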
